A study of Mus musculus with 45 samples.

Results

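The genes described here are 34 mouse genes of glycolysis and of the transcriptional response to low oxygen, followed in whole CT26 tumours under checkpoint antibodies. They were taken by matching gene symbols in both deposited expression tables. The match used no measured value, but the list was drawn up with earlier results of these data known. All 34 were found among the 47729 genes of each table, and all 34 passed the filter on low values, which left 15070 genes for testing in the experiment labelled T2106 and 14914 in the one labelled T2215. They fall into 9 roles: glucose and lactate transport, the glycolytic enzymes, the regulators of glycolysis and pyruvate use, the hypoxia-inducible factor (HIF) subunit with its prolyl hydroxylases, pH regulation, secreted vascular peptides, mitophagy and mitochondria, collagen and disulfide processing, and other hypoxia-induced genes.

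CT26 is a mouse colon carcinoma line, and the study grew it under the skin of the right flank of BALB/c HuGEMM mice, in which human PD-1 and human TIGIT were both knocked in. Every group shares this host. Serplulimab and pembrolizumab are antibodies to PD-1, and HLX53 and tiragolumab are agents against TIGIT, both being inhibitory receptors of T cells. Intraperitoneal dosing started on day 8, at a tumour size of 90 to 100 mm3, and RNA of whole tumours was sequenced.

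T2106 held 18 tumours in 6 groups of 3. They were given serplulimab with HLX53 at 10 mg/kg, serplulimab with HLX53 at 5 mg/kg, pembrolizumab with tiragolumab, serplulimab alone, HLX53 alone, or the saline vehicle. T2215 held 27 tumours in 9 groups of 3, given serplulimab with HLX53, serplulimab with tiragolumab, pembrolizumab with HLX53, pembrolizumab with tiragolumab, serplulimab, pembrolizumab, HLX53, tiragolumab, or vehicle. Agents were given at 10 mg/kg, apart from the 5 mg/kg group of T2106. The 15 groups were analysed within their own experiment. The labels give each tumour a code of its own beside the replicate number but do not say whether these are separate animals, so p-values measure only the spread between these samples, which may be technical.

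Glycolysis splits glucose into pyruvate, and tumour cells turn much of that pyruvate into lactate even where oxygen is present. When oxygen is low, the prolyl hydroxylases stop marking HIF-1α for destruction. The factor then binds short motifs near genes of glucose uptake, glycolysis, pH control, vessel growth and mitophagy and raises their transcription. HIF-1α is controlled mainly at the protein level, so the Hif1a transcript is not a measure of HIF activity.

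The values are FPKM, read fragments scaled to transcript length and library total, recovered from the deposited log2 values. Tests were made on log2(FPKM + 0.5) with limma, which understates the change of genes near 0.5 FPKM. Genes were called at an adjusted p (Benjamini-Hochberg over all genes tested) under 0.05. A log2 fold change is given with its standard error (SE), and a mean FPKM with its SD over 3 tumours. Read depth is unknown, so no counting interval is given.

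The libraries summed to between 678636 and 911201 FPKM, and the 34 genes took 1.02% to 2.22% of that sum. Of the epithelial markers listed for the line, Vil1 was under 0.5 FPKM in all tumours of both experiments. Cdx2 reached at most 0.331 FPKM in T2106 and 0.638 FPKM in T2215. Epcam had a median of 0.450 FPKM in T2106 and 1.12 FPKM in T2215, while Krt18 had 12.8 and 15.5 FPKM, so the intestinal markers Vil1 and Cdx2 were near 0 while the keratin was present.

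In T2106, 3 libraries stood apart from the other 15: HLX53 tumour 2, serplulimab + HLX53 5 mg/kg tumour 3 and vehicle tumour 2. They held 3378 to 5356 FPKM of the ribosomal protein gene Rps12, against at most 861 FPKM in the others, and 133 to 151 FPKM of mitochondrial mt-Co2, against 458 to 927 FPKM. The glycolytic genes themselves were out of proportion there. The ratio of Gapdh to Pgk1 was 7.40, 7.31 and 14.2 in these libraries and between 2.78 and 4.39 in the other 15. The ratio of Eno1 to Pgk1 was 1.44, 1.39 and 2.29, against 0.62 to 0.88. Vehicle tumour 2 was the lowest of the 18 tumours for 23 of the 34 genes. Counts of called genes, medians and calls of the 34 genes and the pathway lists that use these libraries are therefore given with and without them. Marker counts, counts at an unadjusted p, values of single tumours and means ± SD include them.

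**Figure D1:**
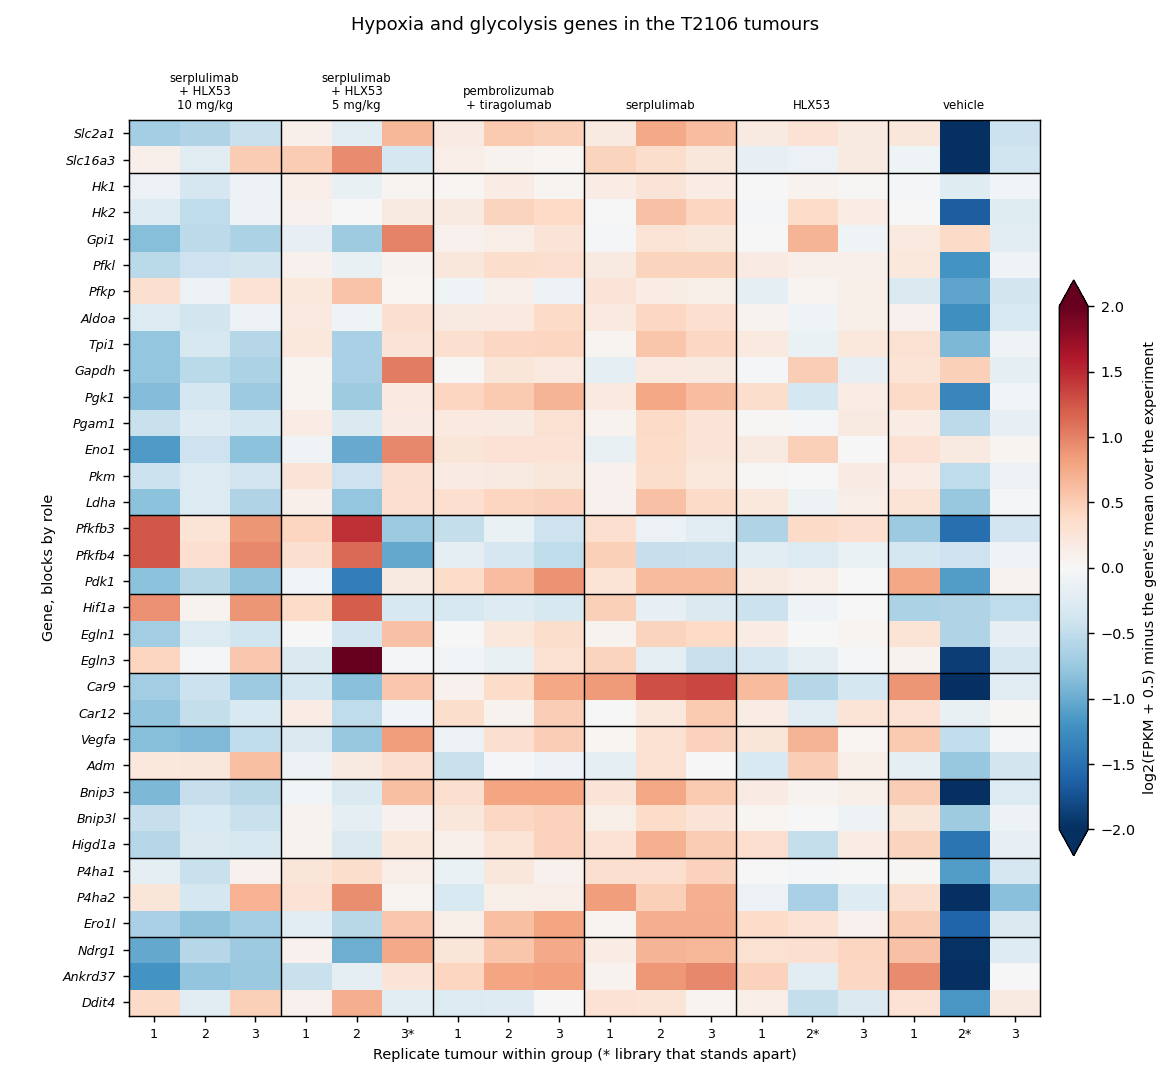
Level of the 34 genes (rows, in blocks by role) in each of the 18 T2106 tumours (columns, vehicle at the right), as the difference of log2(FPKM + 0.5) from the gene's mean over the experiment. The serplulimab + HLX53 10 mg/kg tumours are low for most glycolytic enzymes and high for Pfkfb3, Pfkfb4 and Hif1a, and vehicle tumour 2 is low for most rows.

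The promoters of 4 genes are shown because these genes were called in more comparisons than any other member (2 comparisons each) and because the response to low oxygen works through a core motif near the start site. Each line is the RefSeq sequence of assembly GRCm38.p6, from 250 bases before to 50 after the first listed start, 5′ to 3′ on the plus strand, on which all 4 genes lie. Capitals mark the HIF core motifs ACGTG and GCGTG, searched on both strands, so that CACGT and CACGC are their reverse complements. The windows are chr4:150236458-150236757 for Eno1, chr9:108991652-108991951 for Pfkfb4, chr12:73907617-73907916 for Hif1a and chr9:66713436-66713735 for Car12.
Eno1: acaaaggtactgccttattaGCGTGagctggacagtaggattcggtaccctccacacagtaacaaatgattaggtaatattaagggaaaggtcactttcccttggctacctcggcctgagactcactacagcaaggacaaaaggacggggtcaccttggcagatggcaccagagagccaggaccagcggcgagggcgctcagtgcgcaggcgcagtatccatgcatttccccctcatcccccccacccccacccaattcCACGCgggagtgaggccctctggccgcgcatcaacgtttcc
Pfkfb4: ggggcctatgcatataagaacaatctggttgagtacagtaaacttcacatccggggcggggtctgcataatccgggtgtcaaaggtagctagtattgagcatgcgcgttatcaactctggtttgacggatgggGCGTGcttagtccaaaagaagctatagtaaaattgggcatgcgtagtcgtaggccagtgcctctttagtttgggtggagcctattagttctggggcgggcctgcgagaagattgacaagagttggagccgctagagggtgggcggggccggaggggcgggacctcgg
Hif1a: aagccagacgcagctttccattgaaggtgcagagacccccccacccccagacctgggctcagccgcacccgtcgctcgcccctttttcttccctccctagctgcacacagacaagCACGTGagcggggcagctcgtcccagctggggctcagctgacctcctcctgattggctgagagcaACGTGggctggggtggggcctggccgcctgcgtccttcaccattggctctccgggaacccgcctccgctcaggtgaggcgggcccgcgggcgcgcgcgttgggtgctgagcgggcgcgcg
Car12: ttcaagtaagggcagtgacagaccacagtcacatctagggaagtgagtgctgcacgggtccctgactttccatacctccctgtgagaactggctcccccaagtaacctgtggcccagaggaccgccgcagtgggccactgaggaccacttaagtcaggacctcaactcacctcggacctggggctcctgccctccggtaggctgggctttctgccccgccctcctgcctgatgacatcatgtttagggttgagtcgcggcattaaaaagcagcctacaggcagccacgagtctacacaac
Eno1 held 2 matches, Pfkfb4 1, Hif1a 3 (of which CACGT and ACGTG overlap in the palindrome CACGTG) and Car12 none. Of the 32 members with a RefSeq promoter, 25 held at least 1 match, or 78.1%, against 43.8% of the 27025 promoters of all genes. ACGTG was present in 59.4% of the members' promoters and 19.7% of all promoters, and GCGTG in 56.2% and 32.5%. Both motifs hold a CpG, and the members' windows had a median of 24 CpG against 7 over all promoters. A match is a run of letters and not a measured binding site. Bnip3l and Ndrg1 had no entry. The other genes called against vehicle in T2106 lie, in the GENCODE annotation of GRCm38, at chr2:11471433-11554077 on the minus strand (Pfkfb3), chr13:6579768-6648777 on the minus strand (Pfkp) and chr7:110627661-110629820 on the plus strand (Adm), all protein-coding.

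In tumours given serplulimab with HLX53 at 10 mg/kg, the members did not move one way against vehicle. Pfkfb3, Pfkfb4, Hif1a, Adm and Pfkp were higher, and Eno1 and Car12 were lower, with log2 fold changes between −0.96 and 1.67. Those 7 of 34 genes, or 20.6%, compare with 44% of all 15070 genes called in this comparison (23.4% higher and 20.6% lower), so the share of members called was below that of all genes. Their median log2 fold change was −0.08, beside −0.04 over all genes tested. At an unadjusted p under 0.05 stood 12 of the 34, beside 56.0% of all genes.

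Among the regulators of glycolysis and pyruvate use, Pfkfb3 and Pfkfb4 were higher and Pdk1 was not. Pfkfb3 and Pfkfb4 make and break down fructose 2,6-bisphosphate, the activator of phosphofructokinase. Pfkfb3 had 36.9, 18.5 and 28.8 FPKM in the serplulimab + HLX53 10 mg/kg tumours and 9.11, 5.09 and 11.6 FPKM in vehicle tumours. The lowest treated tumour was above the highest vehicle tumour, and the log2 fold change was 1.67 ± 0.46, adjusted p = 0.0156. Pfkfb4 had 14.7, 7.59 and 11.9 FPKM in the treated tumours and 4.48, 4.27 and 5.55 FPKM in vehicle (1.14 ± 0.41, adjusted p = 0.0388), again with no overlap. Pfkp, the platelet isoform of phosphofructokinase, had 45.7, 33.7 and 44.9 FPKM, against 29.9, 17.4 and 28.3 FPKM in vehicle (0.73 ± 0.19, adjusted p = 0.0138). Pdk1, a mitochondrial kinase that inhibits pyruvate dehydrogenase, had 13.1, 15.9 and 13.3 FPKM, against 40.4, 10.6 and 24.6 FPKM, and was not called (−0.63 ± 0.41, adjusted p = 0.208). The lowest of its vehicle values is that of tumour 2, and without the 3 libraries that stand apart Pdk1 was called lower (−1.14 ± 0.33, adjusted p = 0.0238).

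Hif1a, the oxygen-regulated subunit, had 95.7, 53.3 and 94.5 FPKM in the treated tumours and 32.4, 33.2 and 35.7 FPKM in vehicle tumours (1.20 ± 0.32, adjusted p = 0.0141). The 3 vehicle values lay close together, and all 3 treated tumours were above them. Its prolyl hydroxylases were not called with all libraries: Egln1 had a log2 fold change of −0.29 ± 0.23 and Egln3 of 1.03 ± 0.55. With those libraries left out Egln1 was called lower (−0.51 ± 0.18, adjusted p = 0.0444) and Egln3 was not called (0.45 ± 0.53, adjusted p = 0.484). Adm, the vasodilator peptide adrenomedullin, had 7.92, 7.95 and 10.5 FPKM in the treated tumours and 5.86, 3.81 and 5.12 FPKM in vehicle (0.78 ± 0.22, adjusted p = 0.0163). Vegfa, the growth factor of vessels, had 48.8, 47.6 and 62.1 FPKM, against 127, 62.6 and 87.1 FPKM in vehicle. All 3 treated values were below all 3 vehicle values, but the difference was not called (−0.75 ± 0.34, adjusted p = 0.0835).

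The lower genes were an enzyme and a pH regulator. Eno1, the enolase of glycolysis, had 333, 548 and 411 FPKM in the treated tumours and 889.6, 825 and 752 FPKM in vehicle (−0.96 ± 0.35, adjusted p = 0.0403). Its near copy Eno1b can share reads with it and is uncertain in the same way. Eno1b alone fell short of the threshold (−0.62 ± 0.30, adjusted p = 0.102), and the sum of both had −0.86 ± 0.32 (adjusted p = 0.0435). Car12, a carbonic anhydrase of the cell surface, had 1.62, 2.14 and 2.48 FPKM in the treated tumours and 4.01, 2.84 and 3.23 FPKM in vehicle (−0.58 ± 0.21, adjusted p = 0.0395). Gapdh, of the step before the phosphoglycerate kinase, had 2147, 2527 and 2369 FPKM, against 4442, 5127 and 3207 FPKM, and stood just outside the threshold (−0.84 ± 0.33, adjusted p = 0.0545), but passed it without the 3 libraries (−0.69 ± 0.22, adjusted p = 0.0323). Of the 13 glycolytic enzymes 1 was called higher and 1 lower, with a median of −0.20. Without the 3 libraries 1 was higher and 7 lower, with a median of −0.51.

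Without the 3 libraries that stand apart, which leaves 2 vehicle tumours, 23 members were called, 5 higher and 18 lower, and the background was 44.2%. The 7 genes above were all among them. The median of the 34 was then −0.49. Pgk1, which makes the first ATP of glycolysis, had −0.81 (adjusted p = 0.0282), and Ldha, which turns pyruvate into lactate, −0.70 (adjusted p = 0.0415). Ankrd37, a HIF-induced gene, had −1.37 (adjusted p = 0.0133) and Vegfa −0.998 (adjusted p = 0.014). Leaving out vehicle tumour 2 alone gave 6 called genes, 2 higher and 4 lower, with a median of −0.49 and a background of 25.1%. The count of lower enzymes and HIF targets thus depended on which libraries were counted. Over the fits that left out single tumours, the median of the 34 ranged from −0.49 to 0.33, so its sign depended on the tumours counted. Leaving out serplulimab + HLX53 10 mg/kg tumour 1 or tumour 3 left no call by limma, with 4 and 9 members at an unadjusted p under 0.05. The shares of all genes are not given for these refits, so a loss particular to the members cannot be read from them. With a covariate for the adipocyte score none of the 34 was called by limma, and 14 had an unadjusted p under 0.05. It turned the sign of 2 of the 7 called genes, Eno1 (0.23) and Pfkfb4 (−0.19). The score, the mean log2(FPKM + 0.5) of 11 adipocyte markers, was 6.07 to 6.35 in the treated tumours and 0.855 to 3.78 in vehicle. It nearly followed the groups, so score and treatment cannot be told apart. The share of all genes called is not given for that fit, so the loss is not shown to be particular to the members.

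**Figure D2:**
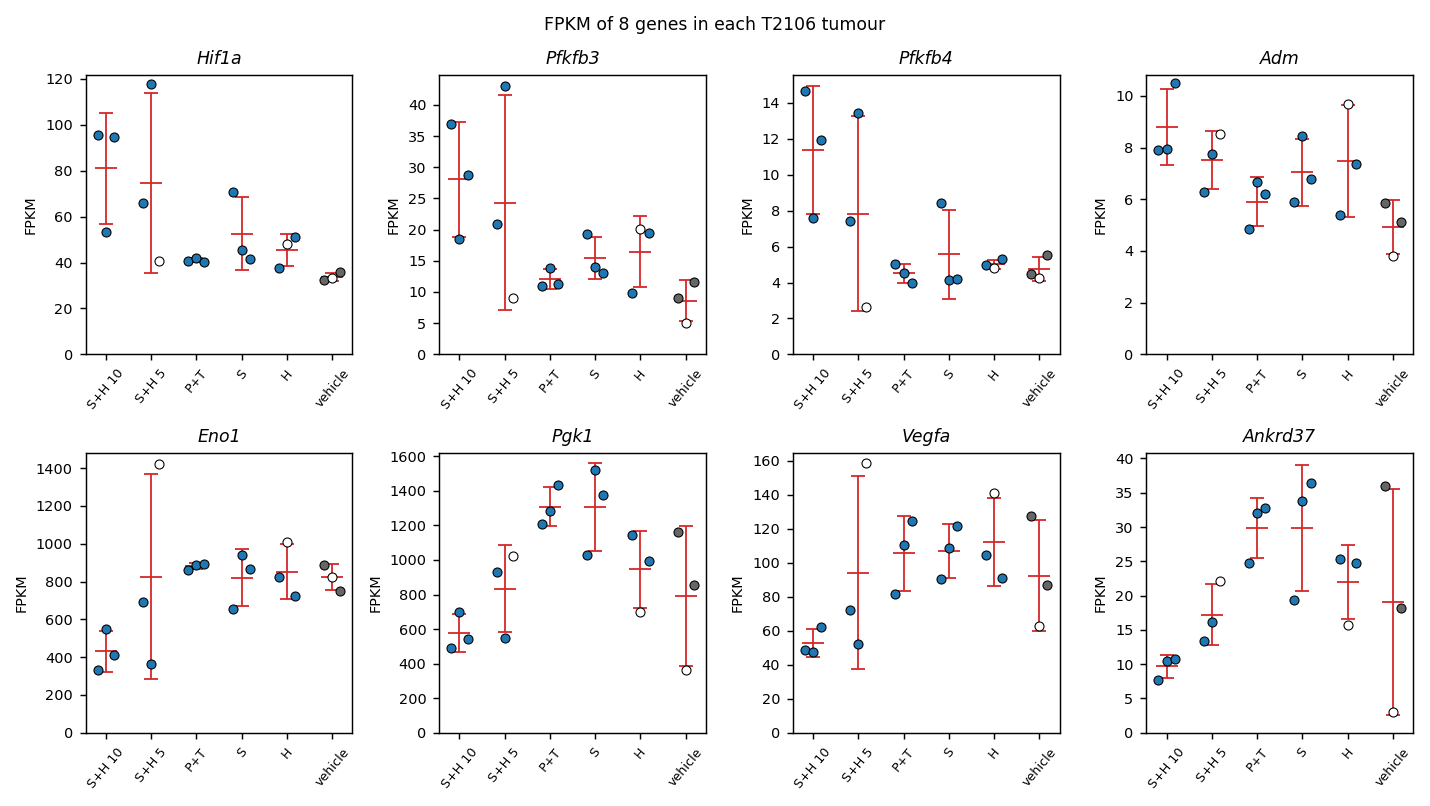
FPKM of 8 genes in every T2106 tumour, by group, with vehicle at the right. S+H 10 and S+H 5 are serplulimab with HLX53 at 10 and 5 mg/kg, P+T is pembrolizumab with tiragolumab, S serplulimab and H HLX53. Open circles are the 3 libraries that stand apart and red marks the mean ± SD of 3 tumours. Hif1a and Pfkfb3 are higher in the S+H 10 tumours than in every vehicle tumour, and Eno1 is lower.

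The cell makeup of these tumours differed as well. The 11 adipocyte markers summed to between 2164 and 2424 FPKM in the serplulimab + HLX53 10 mg/kg tumours, against 78.1 to 455 FPKM in vehicle tumours, and all 11 were called higher. All 10 macrophage and monocyte markers were higher, at 7961 to 13306 FPKM against 1926 to 3124 FPKM in vehicle, as were all 8 neutrophil markers (445 to 1443 FPKM, against 37.3 to 69.7 FPKM in vehicle). Of the 9 fibroblast markers 8 were higher, at 3276 to 4994 FPKM against 433 to 675 FPKM in vehicle, and of the 8 endothelial markers 6, at 194 to 277 FPKM against 61.2 to 113 FPKM. Of the 8 T cell markers 2 were higher, at 62.6 to 156 FPKM against 32.6 to 41.9 FPKM in vehicle. The epithelial list drawn up for the CT26 line had 6 of 6 tested genes higher, at 86.3 to 142 FPKM against 10.2 to 22.8 FPKM in vehicle. Vil1 and Cdx2 were under 0.5 FPKM in all 3 treated tumours. Over T2106 Epcam, Cldn7, Cdh1, Krt8 and Krt19 had medians between 0.167 and 2.20 FPKM, and Krt18 12.8 FPKM. The list therefore cannot be read as the amount of tumour cells. Skin keratinocyte markers were higher for 5 of 6 tested, at 11.2 to 12.3 FPKM against 1.31 to 2.02 FPKM in vehicle, with Krt1 and Trp63 under 0.5 FPKM. Muscle markers summed to 4.08 to 7.67 FPKM, against 3.97 to 6.15 FPKM, with 1 of 4 tested higher, and erythrocyte markers to 216 to 383 FPKM, against 155 to 776 FPKM, with 0 of 5 called by limma. Of the 10 cell cycle genes 9 were lower, at 443 to 810 FPKM against 1014 to 1050 FPKM in vehicle. In bulk tumour RNA, fewer cells of a type and less RNA per cell cannot be told apart. The part of these cells in the results of the 34 genes was not tested.

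Against tumours given pembrolizumab with tiragolumab, a comparison that holds none of the libraries that stand apart, most of glycolysis was lower in the serplulimab + HLX53 10 mg/kg tumours. Of the 34 members 17 were called, 15 lower and 2 higher. This is 50%, beside 42.6% of all genes called (25.8% higher and 16.8% lower). The median of the members was −0.70, against −0.02 over all genes tested, and 24 of the 34 had an unadjusted p under 0.05, beside 54.7% of all genes. Of the 13 glycolytic enzymes 8 were lower and none higher by limma, 10 having an unadjusted p under 0.05. The summed FPKM of the 13 enzymes was 6662, 8102 and 7391 in the 3 tumours given the 10 mg/kg combination.

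Pgk1 had 491, 698 and 539.7 FPKM in the serplulimab + HLX53 10 mg/kg tumours and 1208, 1286 and 1433 FPKM in those given pembrolizumab with tiragolumab (−1.19 ± 0.36, adjusted p = 0.0203). Ldha had 722, 1057 and 839 FPKM, against 1621, 1726 and 1769 FPKM (−0.98 ± 0.29, adjusted p = 0.019). Eno1 had 333, 548 and 411 FPKM, against 863, 887 and 893 FPKM (−1.06 ± 0.35, adjusted p = 0.0287). In each of these enzymes every tumour of the serplulimab combination was below every tumour of the pembrolizumab combination. Tpi1, which interconverts the triose phosphates, had a log2 fold change of −0.94 ± 0.28, adjusted p = 0.0211, Pfkl, the liver phosphofructokinase, one of −0.74 ± 0.24, adjusted p = 0.029, and Pgam1, the phosphoglycerate mutase, one of −0.58 ± 0.17, adjusted p = 0.0176. Pkm, the pyruvate kinase, was lower by less (−0.55 ± 0.19, adjusted p = 0.0346), and Hk1, a hexokinase of most tissues, by least (−0.26 ± 0.10, adjusted p = 0.0401).

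Several HIF targets were lower in the same comparison. Pdk1 had 13.1, 15.9 and 13.3 FPKM, against 30.3, 36.1 and 44.0 FPKM in the pembrolizumab + tiragolumab tumours (−1.34 ± 0.41, adjusted p = 0.0214). Ankrd37 had 7.72, 10.4 and 10.8 FPKM, against 24.8, 32.1 and 32.7 FPKM (−1.58 ± 0.59, adjusted p = 0.043). Vegfa had 48.8, 47.6 and 62.1 FPKM, against 81.3, 111 and 125 FPKM (−0.98 ± 0.34, adjusted p = 0.0354). The groups did not overlap for any of the 3. Bnip3l, a receptor of mitophagy, had the smallest adjusted p of the members (−0.77 ± 0.18, adjusted p = 0.00893). Car12 was lower too (−0.83 ± 0.21, adjusted p = 0.0115), as was Egln1 (−0.64 ± 0.23, adjusted p = 0.0404). Ero1l, an oxidase of disulfide formation, had 61.6, 55.4 and 60.4 FPKM, against 105, 147 and 167 FPKM (−1.21 ± 0.41, adjusted p = 0.0309). The 2 higher members were Hif1a (0.93 ± 0.32, adjusted p = 0.0322) and Pfkfb4, which had 14.7, 7.59 and 11.9 FPKM, against 5.05, 4.54 and 3.98 FPKM (1.20 ± 0.41, adjusted p = 0.0326). Ndrg1, Bnip3, Gpi1, Pfkfb3, Adm, Slc2a1 and Gapdh stood just outside, with adjusted p between 0.0519 and 0.0637.

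Without the 3 libraries that stand apart this comparison keeps all its tumours, but the estimate of spread changes, and 28 members were called (4 higher and 24 lower, background 54.1%), the 17 above among them. Leaving out single tumours lowered the count to between 1 (without serplulimab + HLX53 10 mg/kg tumour 1) and 14. The shares of all genes are not given for these fits, so a loss particular to the members cannot be read from them. The adipocyte score was 6.07 to 6.35 in the serplulimab combination and 0.745 to 0.839 under pembrolizumab + tiragolumab, so score and treatment cannot be told apart. With a covariate for the adipocyte score none was called by limma, and 2 had an unadjusted p under 0.05. The share of all genes is not given for that fit. That covariate turned the sign of 14 of the 17 called members, among them Pgk1 (0.25), Ldha (0.31), Eno1 (0.49), Vegfa (0.67) and Hif1a (−0.37). The 11 adipocyte markers summed to between 2164 and 2424 FPKM in the serplulimab combination, against 85.7 to 96.0 FPKM in the pembrolizumab + tiragolumab tumours, and all 11 were called higher. Their part in the result was not tested.

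**Figure D3:**
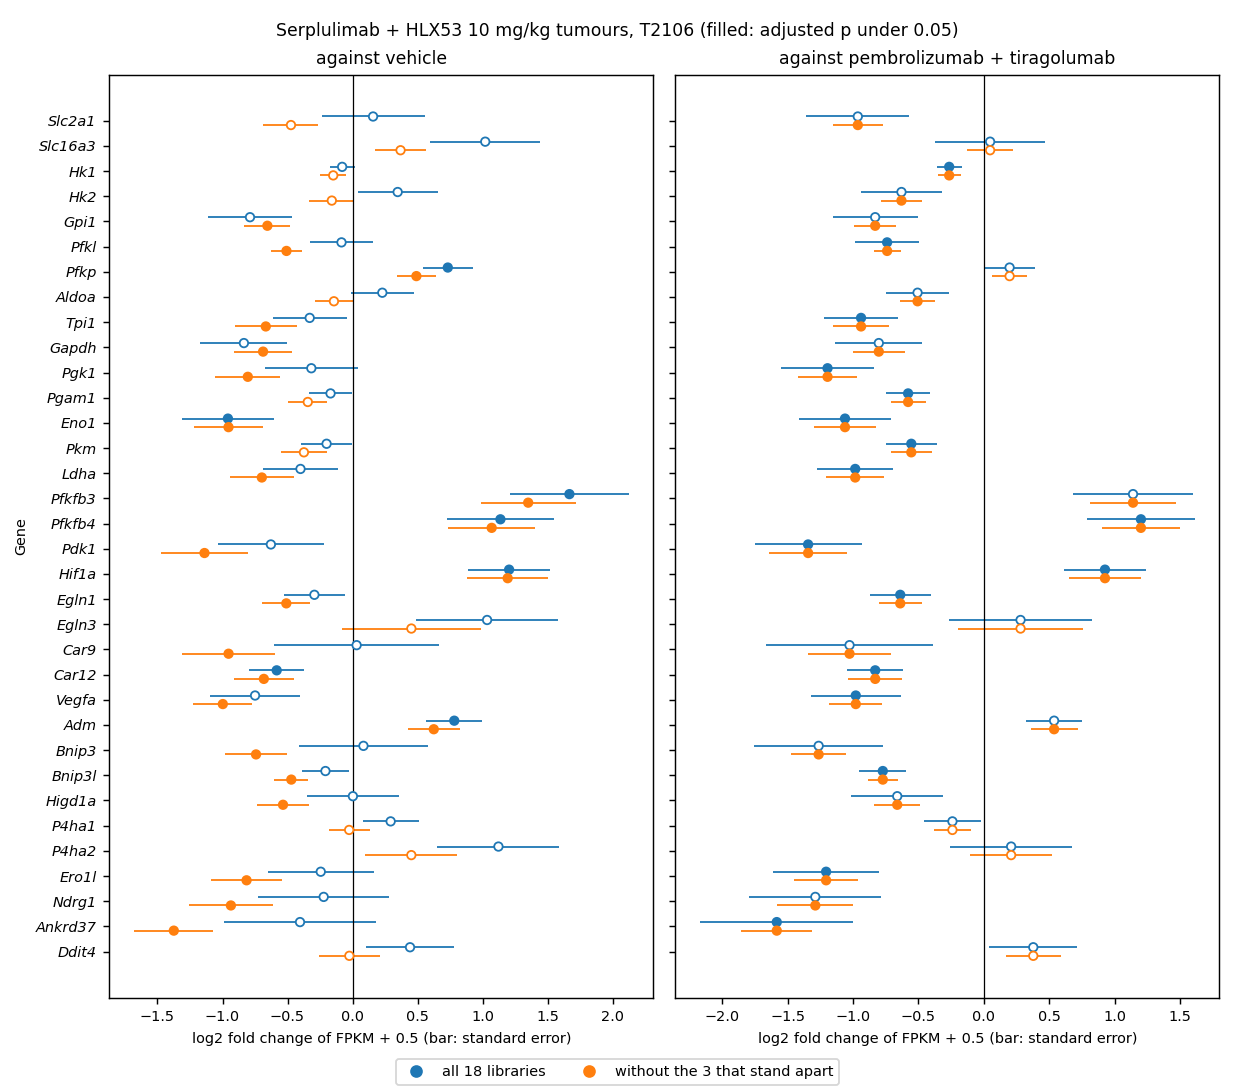
Log2 fold change (horizontal, with standard error) of each of the 34 genes in the serplulimab + HLX53 10 mg/kg tumours against vehicle (left) and against pembrolizumab + tiragolumab (right). Blue is the fit of all 18 libraries and orange that without the 3 that stand apart, and filled points have an adjusted p under 0.05. Against vehicle most enzymes move left when those libraries are left out, while on the right the estimates stay and the bars shorten.

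The same pathways hold many genes beyond the 34, and 4 lists of them, 83 genes in all, were counted. Their counts stand beside 23.4% of all genes called higher and 20.6% lower against vehicle. In that comparison, 7 of 20 tested genes of other glycolytic isoforms and shunts were higher in the serplulimab + HLX53 10 mg/kg tumours and 1 lower. Slc2a4, the insulin-regulated glucose transporter of fat and muscle, had 2.92 ± 0.399 FPKM in the treated tumours and 0.170 ± 0.180 FPKM in vehicle (2.38 ± 0.49, adjusted p = 0.00918). Taldo1, of the pentose phosphate shunt, had 156 ± 26.4 FPKM, against 87.4 ± 10.6 FPKM in vehicle (0.82 ± 0.21, adjusted p = 0.0128). Slc2a3, a high-affinity glucose transporter (1.94 ± 0.49, adjusted p = 0.013), and Pgd, another shunt enzyme (0.42 ± 0.12, adjusted p = 0.0165), were higher as well. Of 15 genes of pyruvate and lactate use 6 were higher and 2 lower. Ldhb, the other lactate dehydrogenase subunit, had 13.9 ± 5.50 FPKM, against 1.22 ± 0.487 FPKM in vehicle (3.03 ± 0.73, adjusted p = 0.0118). Pcx, the pyruvate carboxylase (1.31 ± 0.33, adjusted p = 0.013), Pdk4, a pyruvate dehydrogenase kinase (1.79 ± 0.46, adjusted p = 0.0134), and Mpc2, of the mitochondrial pyruvate carrier (0.75 ± 0.20, adjusted p = 0.0155), were also higher. Without the 3 libraries that stand apart the counts were 7 higher and 3 lower of 20, and 6 higher and 2 lower of 15.

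Of 10 tested HIF subunits and regulators 1 was higher and 2 lower against vehicle. Epas1, the HIF-2α subunit prominent in endothelium, was the higher one (26.4 ± 9.12 FPKM in the treated tumours and 3.57 ± 1.47 FPKM in vehicle, 2.72 ± 0.67, adjusted p = 0.0122). Siah2, a ubiquitin ligase of the prolyl hydroxylases, was lower (−0.59 ± 0.20, adjusted p = 0.0324), as was Cited2, a HIF antagonist (−0.73 ± 0.27, adjusted p = 0.0398). Of 31 other HIF targets 13 were higher and 4 lower. Hmox1, the haem oxygenase, had 478 ± 50.5 FPKM in the treated tumours and 68.8 ± 27.1 FPKM in vehicle (2.87 ± 0.38, adjusted p = 0.00305), and Nos2, the inducible nitric oxide synthase of macrophages, 42.3 ± 20.2 FPKM and 4.09 ± 1.95 FPKM (3.19 ± 0.57, adjusted p = 0.0073). Selenbp1 (2.01 ± 0.39, adjusted p = 0.00849) and Stc2, a stanniocalcin (1.98 ± 0.46, adjusted p = 0.0113), were higher. Without the 3 libraries the 31 targets counted 12 higher and 7 lower, and the 10 regulators 1 and 2, and every pathway gene named with a value against vehicle passed the threshold in the same direction. Against pembrolizumab with tiragolumab, where 25.8% of all genes were called higher and 16.8% lower, the 4 lists counted 5 higher and 4 lower of 20, 6 and 4 of 15, 1 and 2 of 10, and 10 and 7 of 31. In the fit without the 3 libraries, beside 54.1% of all genes called, the first counted 7 and 5 and the last 12 and 9. The counts of 15 and of 10 stayed. The higher ones with the smallest p included Ldhb (3.78 ± 0.73, adjusted p = 0.00678), Slc2a4 (2.60 ± 0.49, adjusted p = 0.00654), Epas1 (2.75 ± 0.67, adjusted p = 0.01) and Lox, the lysyl oxidase of collagen (6.01 ± 1.24, adjusted p = 0.00697). The lower ones included Gys1, the glycogen synthase (−0.74 ± 0.22, adjusted p = 0.0208). Adipocyte, macrophage, fibroblast and endothelial markers, whose sums are given above, were higher in the same tumours, and their part in these counts was not tested.

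At 5 mg/kg of HLX53 with serplulimab, none of the 34 genes was called against vehicle by limma, where 1.02% of all genes were (0.352% higher and 0.67% lower). At an unadjusted p under 0.05 stood 11 of the 34, beside 28.7% of all genes. The smallest adjusted p belonged to Pfkp (44.9 ± 8.74 FPKM in the treated tumours and 25.2 ± 6.79 FPKM in vehicle, 0.84 ± 0.19, adjusted p = 0.0508). Hif1a had 65.8, 118 and 40.6 FPKM in these tumours and 32.4, 33.2 and 35.7 FPKM in vehicle (0.999 ± 0.32, adjusted p = 0.0862), with all 3 above vehicle. Pfkfb3 had 20.8, 43.0 and 9.04 FPKM, against 9.11, 5.09 and 11.6 FPKM, and tumour 3, one of those that stand apart, lay among the vehicle values. Egln3 had 2.80, 16.9 and 3.46 FPKM, against 3.73, 0.590 and 2.67 FPKM, with tumour 2 well above all others. Of the 31 other HIF targets 2 were higher and 0 lower by limma, Hmox1 (594 ± 224 FPKM in the treated tumours and 68.8 ± 27.1 FPKM in vehicle, 3.12 ± 0.38, adjusted p = 0.00449) and Nos2 (53.2 ± 27.5 FPKM and 4.09 ± 1.95 FPKM, 3.51 ± 0.57, adjusted p = 0.0193), and 0 genes of the other 3 pathway lists were called. The 31 targets counted 7 higher and 3 lower without the 3 libraries that stand apart, Hmox1 and Nos2 among the higher, and the other lists 4 higher of 20, 1 higher of 15, and 1 higher and 1 lower of 10.

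The 3 tumours of this dose were unlike each other. Tumour 2 held 2363 FPKM of adipocyte markers, the highest of its group, against a lowest of 90.4 FPKM, and its summed glycolytic enzymes, at 7250 FPKM, were near the tumours of the 10 mg/kg dose. Tumour 3 had the highest sum of all 18 tumours, at 16884 FPKM. Leaving out tumour 3 alone gave 9 called members beside 40.4% of all genes, and leaving out tumour 1 alone gave 1 beside 5.95%. Without the 3 libraries that stand apart, Slc16a3, the lactate exporter, Pfkp, Pfkfb3 and Hif1a were called higher, 4 of 34 beside a background of 17.7%. Their log2 fold changes were then 0.96, 0.72, 1.495 and 1.36. Between the doses, 10 against 5 mg/kg, no member was called by limma, beside 0.139% of all genes (0.133% higher and 0.00664% lower), and 6 had an unadjusted p under 0.05, beside 10.97% of all genes. The median of the members was −0.40 in that contrast, and −0.30 without the 3 libraries. Without tumour 2 of the 5 mg/kg group, which also carried muscle markers, 12 members were called between the doses, 1 higher and 11 lower, beside 38.9% of all genes.

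Serplulimab alone, HLX53 alone and pembrolizumab with tiragolumab gave no called member against vehicle in T2106 by limma. The background was 0%, 0.00664% and 0% of all genes, and 17, 4 and 12 members had an unadjusted p under 0.05, beside 8.49%, 3.86% and 5.14% of all genes. The members leaned upward, with medians of 0.63, 0.41 and 0.57, and 32, 33 and 32 of the 34 positive. These comparisons share the vehicle group. Without the 3 libraries the medians were 0.27, 0.07 and 0.21, with no member called. Slc2a1, the basal glucose transporter, shows this. It had 85.6, 128 and 116 FPKM under serplulimab, 85.7, 92.7 and 85.4 FPKM under HLX53 and 85.0, 109 and 106 FPKM under pembrolizumab with tiragolumab, against 88.95, 18.6 and 55.9 FPKM in vehicle tumours. The lowest vehicle value is that of tumour 2, and vehicle tumour 1 lies within the range of the treated tumours. Under serplulimab with HLX53 it had 47.0, 49.9 and 55.4 FPKM at 10 mg/kg and 81.2, 65.0 and 119.7 FPKM at 5 mg/kg.

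Hk2, the inducible hexokinase, had 16.5, 24.99 and 22.3 FPKM under serplulimab, against 16.4, 4.94 and 13.9 FPKM in vehicle. Its log2 fold change of 0.97 ± 0.31 (adjusted p = 0.471) became 0.46 without the libraries that stand apart. Car9, the carbonic anhydrase that is among the most oxygen-sensitive HIF targets, had 14.0, 19.1 and 19.9 FPKM under serplulimab and 14.4, 0.816 and 6.47 FPKM in vehicle, with vehicle tumour 1 at the lower edge of the serplulimab range. Bnip3, a mitophagy receptor, had 194, 278 and 232 FPKM under serplulimab and 228, 31.0 and 134 FPKM in vehicle. Without the libraries that stand apart the log2 fold change under serplulimab was 0.62 ± 0.21, adjusted p = 0.642 for Slc2a1, 0.82 ± 0.36, adjusted p = 0.66 for Car9 and 0.41 ± 0.24, adjusted p = 0.71 for Bnip3. With vehicle tumour 2 counted, the spread in FPKM of these 3 genes was wider among vehicle tumours than among serplulimab tumours. Without it Slc2a1 spanned 55.9 to 88.95 FPKM in vehicle and 85.6 to 128 FPKM under serplulimab, the narrower range being that of vehicle.

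In T2215 no member was called in any of the 14 comparisons by limma. The share of all genes called ranged from 0% to 0.0134%, with 0.00671% for pembrolizumab + HLX53 against vehicle, all of it higher, and between 0 and 8 members had an unadjusted p under 0.05, where 0.939% to 26.6% of all genes did. Against vehicle the members' median log2 fold change was 0.21 for serplulimab + HLX53, −0.05 for serplulimab + tiragolumab, 0.19 for pembrolizumab + HLX53 and 0.22 for pembrolizumab + tiragolumab. For single agents it was 0.34 for serplulimab, 0.28 for pembrolizumab, 0.25 for HLX53 and −0.18 for tiragolumab. All 8 contrasts share the 3 vehicle tumours. The 10 mg/kg combination of serplulimab with HLX53, for which 7 members were called against vehicle in T2106, had no called member here. Against pembrolizumab + tiragolumab it had none here either, beside 0.0134% of all genes. Leaving out single tumours gave medians from −0.31 to 0.26 in that contrast. The glycolytic enzymes summed to 14017, 6171 and 14247 FPKM in the combination and 12612, 13306 and 11186 FPKM under pembrolizumab + tiragolumab. The difference between the experiments was not tested because their tables were normalised separately.

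**Figure D4:**
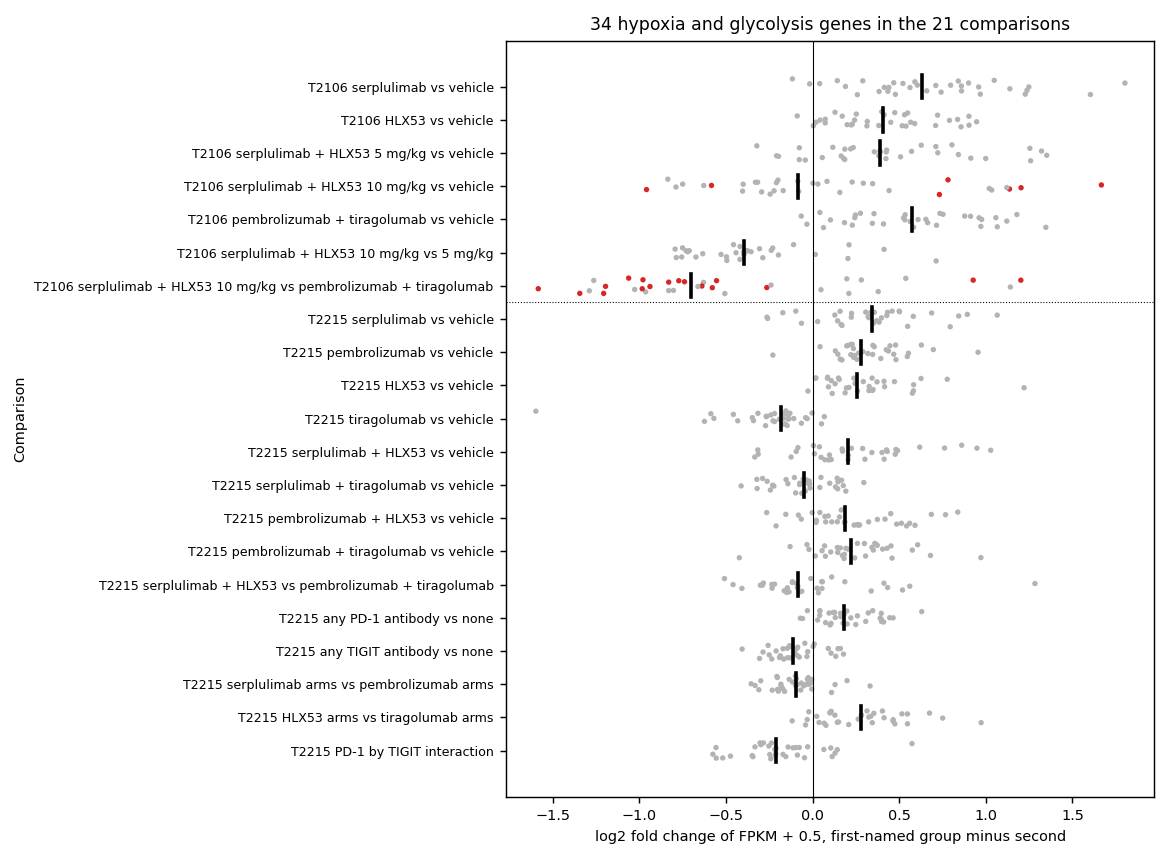
Log2 fold change of each of the 34 genes (dots) in all 21 comparisons, T2106 and T2215, with called genes in red and the members' median as a black bar. Called genes appear only in the 2 comparisons of serplulimab + HLX53 10 mg/kg with vehicle and with pembrolizumab + tiragolumab in T2106, and the medians of T2215 lie between −0.21 and 0.34.

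The values of single tumours show where the spread lay. Hif1a had 59.1, 74.3 and 44.3 FPKM under serplulimab + HLX53, against 42.4, 44.6 and 42.0 FPKM in vehicle tumours of T2215 (0.43 ± 0.23, adjusted p = 0.314). The vehicle values lay within a narrow range, and only tumour 2 and tumour 1 of the combination were above it. Pgk1 had 1415, 432 and 1458 FPKM in the combination, against 659, 1279 and 974 FPKM in vehicle, and Ldha 1690.2, 695 and 1694 FPKM, against 1106, 1547 and 1386 FPKM. Combination tumour 2 was the lowest of the 27 tumours for 15 of the 34 genes, and its glycolytic enzymes summed to 6171 FPKM, against 14017 and 14247 FPKM in the other tumours of its group. It also held the most adipocyte and macrophage marker RNA of T2215, at 4770 and 12515 FPKM. Their part in its levels was not tested.

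Tiragolumab tumour 1 was below the experiment's mean for all 34 genes and the lowest for 11, and tiragolumab tumour 3 was below for all 34 as well. Slc2a1 had 30.4, 79.1 and 59.0 FPKM under tiragolumab and 31.5, 108 and 80.6 FPKM in vehicle, and Car9 1.45, 5.98 and 5.17 FPKM, against 4.88, 28.9 and 12.02 FPKM. Vehicle tumour 1 was low for both genes, so the groups overlapped. Aldoa, the aldolase of muscle and most tumours, had 4258, 1364 and 1218 FPKM under serplulimab and 665, 1165 and 995 FPKM in vehicle. Its high value was in serplulimab tumour 1, which held 22292 FPKM of muscle markers.

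**Figure D5:**
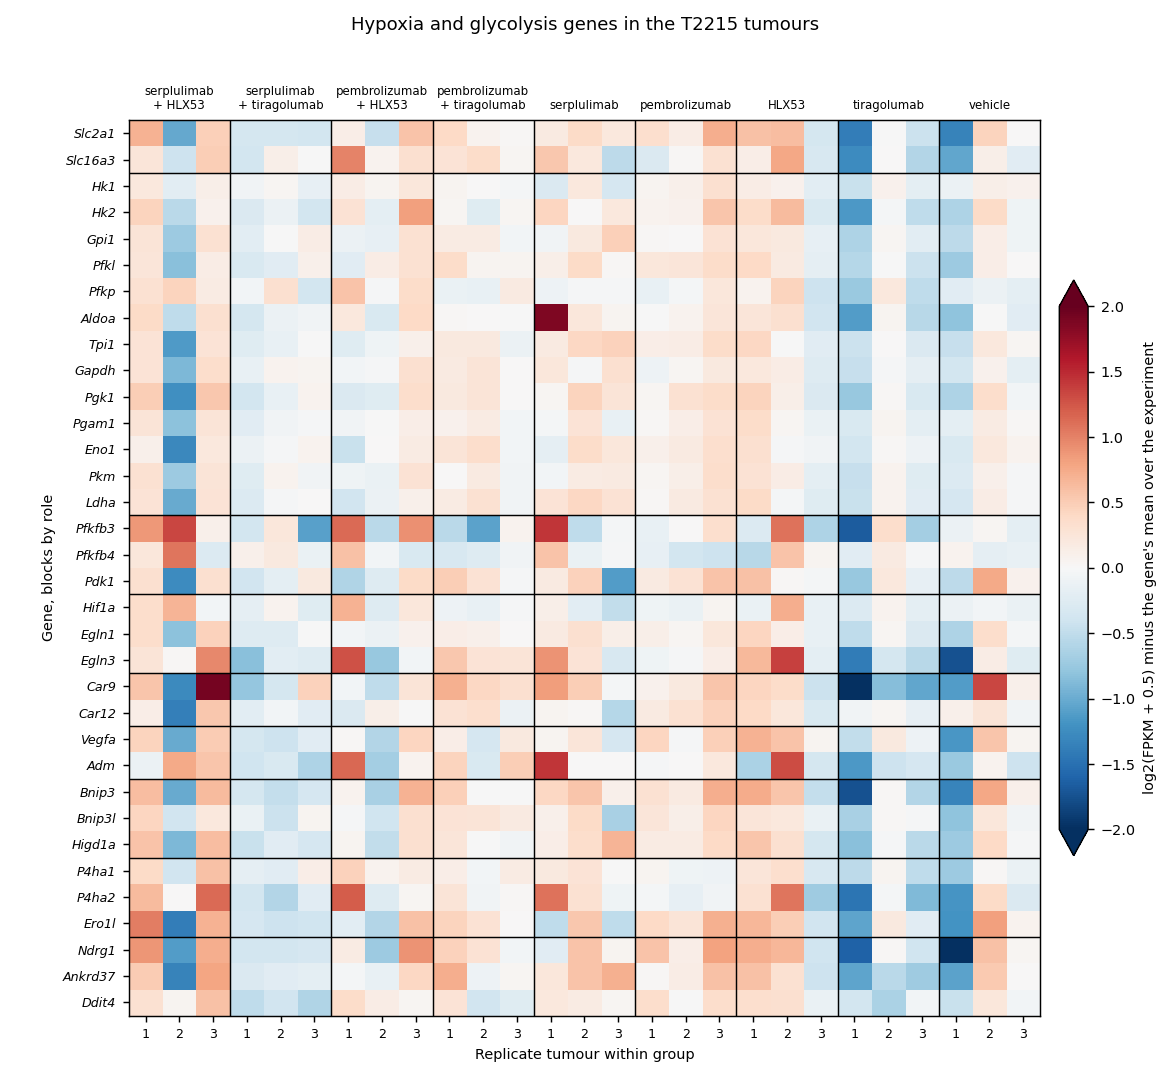
Level of the 34 genes (rows, in blocks by role) in each of the 27 T2215 tumours (columns, vehicle at the right), as the difference of log2(FPKM + 0.5) from the gene's mean over the experiment. Serplulimab + HLX53 tumour 2, tiragolumab tumour 1 and vehicle tumour 1 are low for most rows, while tumours 1 and 3 of that combination and vehicle tumour 2 are high for most.

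T2215 also allows agents of one target to be compared across partners. The agents were all given at 10 mg/kg, and the labels name no structural difference between them. Between the 9 tumours of the HLX53 arms and the 9 of the tiragolumab arms the members had a median log2 difference of 0.28, positive for 30 of 34, but none was called by limma, beside 0% of all genes. At an unadjusted p under 0.05 stood 8 of the 34, beside 26.6% of all genes. Ddit4, an inhibitor of mTORC1 induced by hypoxia and stress, had the smallest (0.55 ± 0.11, unadjusted p = 9.3e-05, adjusted p = 0.155). It had 32.4, 27.2 and 39.2 FPKM under serplulimab + HLX53, 33.8, 28.9 and 26.8 FPKM under pembrolizumab + HLX53 and 33.0, 32.6 and 23.8 FPKM under HLX53. In the tiragolumab arms it had 18.2, 19.8 and 17.04 FPKM under serplulimab + tiragolumab, 31.6, 19.9 and 21.9 FPKM under pembrolizumab + tiragolumab and 20.1, 16.6 and 25.1 FPKM under tiragolumab. The arms overlapped, mainly through pembrolizumab + tiragolumab tumour 1.

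Pfkfb3 had a log2 difference of 0.97 ± 0.33 and P4ha2, a collagen prolyl hydroxylase, of 0.75 ± 0.27 between the HLX53 and tiragolumab arms, each with an adjusted p of 0.155. Serplulimab arms against pembrolizumab arms gave a median of −0.10 with no member called, none of 34 at an unadjusted p under 0.05 (9.51% of all genes) and 0% of all genes called. Any PD-1 antibody against none gave a median of 0.18, no call, 4 members at an unadjusted p under 0.05 (7.28% of all genes) and a background of 0%. Any TIGIT agent against none gave −0.11, no call, 0 such members (6.62% of all genes) and a background of 0.0134%. The interaction of PD-1 and TIGIT agents had a median of −0.21, no call, 0 such members (1.14% of all genes) and a background of 0%. None of these comparisons shows that the agents act alike, since a difference that misses the threshold is not an absence of difference.

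A panel of 10 genes across the roles is given in every group, as the mean ± SD of 3 tumours, to show the order of levels (T2106 includes the libraries that stand apart). The extremes of that order were read after the values were seen, so no test is given for them.

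Slc2a1 averaged 50.8 ± 4.26 FPKM under serplulimab + HLX53 10 mg/kg, 88.6 ± 28.1 FPKM under serplulimab + HLX53 5 mg/kg, 99.8 ± 12.9 FPKM under pembrolizumab + tiragolumab, 110.0 ± 22.02 FPKM under serplulimab, 87.9 ± 4.10 FPKM under HLX53 and 54.5 ± 35.2 FPKM under vehicle in T2106. The highest group mean was that of serplulimab and the lowest that of serplulimab + HLX53 10 mg/kg, and the tumours of these groups did not overlap. In T2215 Slc2a1 averaged 93.3 ± 48.0 FPKM under serplulimab + HLX53, 62.4 ± 0.330 FPKM under serplulimab + tiragolumab, 88.0 ± 30.2 FPKM under pembrolizumab + HLX53, 90.3 ± 13.5 FPKM under pembrolizumab + tiragolumab, 95.6 ± 7.18 FPKM under serplulimab, 107 ± 22.6 FPKM under pembrolizumab, 102 ± 34.1 FPKM under HLX53, 56.2 ± 24.5 FPKM under tiragolumab and 73.4 ± 38.9 FPKM under vehicle. There the mean of pembrolizumab was highest and that of tiragolumab lowest, and their tumours did not overlap. Hk2 averaged 13.5 ± 1.90 FPKM under serplulimab + HLX53 10 mg/kg, 17.6 ± 1.05 FPKM under serplulimab + HLX53 5 mg/kg, 21.2 ± 2.02 FPKM under pembrolizumab + tiragolumab, 21.3 ± 4.33 FPKM under serplulimab, 18.6 ± 2.67 FPKM under HLX53 and 11.7 ± 6.02 FPKM under vehicle in T2106. Its level was highest on average under serplulimab and lowest under vehicle, whose tumours did not overlap. In T2215 Hk2 averaged 17.5 ± 5.87 FPKM under serplulimab + HLX53, 14.0 ± 1.35 FPKM under serplulimab + tiragolumab, 21.9 ± 7.78 FPKM under pembrolizumab + HLX53, 16.3 ± 1.77 FPKM under pembrolizumab + tiragolumab, 19.8 ± 2.93 FPKM under serplulimab, 20.3 ± 4.20 FPKM under pembrolizumab, 20.7 ± 6.53 FPKM under HLX53, 11.8 ± 4.54 FPKM under tiragolumab and 16.3 ± 5.69 FPKM under vehicle. The order ran there between pembrolizumab + HLX53 at the top and tiragolumab at the bottom, whose tumours overlapped.

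Pgk1 averaged 577 ± 108 FPKM under serplulimab + HLX53 10 mg/kg, 834 ± 252 FPKM under serplulimab + HLX53 5 mg/kg, 1309 ± 114 FPKM under pembrolizumab + tiragolumab, 1307 ± 254 FPKM under serplulimab, 945 ± 225 FPKM under HLX53 and 792 ± 404 FPKM under vehicle in T2106. Among the 6 groups the mean under pembrolizumab + tiragolumab topped the order and that under serplulimab + HLX53 10 mg/kg closed it, and their tumours did not overlap. In T2215 Pgk1 averaged 1102 ± 581 FPKM under serplulimab + HLX53, 917 ± 140.4 FPKM under serplulimab + tiragolumab, 984.6 ± 257 FPKM under pembrolizumab + HLX53, 1123 ± 97.7 FPKM under pembrolizumab + tiragolumab, 1204 ± 173 FPKM under serplulimab, 1197 ± 139 FPKM under pembrolizumab, 1095 ± 273 FPKM under HLX53, 811 ± 213 FPKM under tiragolumab and 971 ± 310.1 FPKM under vehicle. Among these 9 groups serplulimab had the highest mean and tiragolumab the lowest, and their tumours did not overlap. Ldha averaged 873 ± 170.1 FPKM under serplulimab + HLX53 10 mg/kg, 1244 ± 447 FPKM under serplulimab + HLX53 5 mg/kg, 1705 ± 76.0 FPKM under pembrolizumab + tiragolumab, 1649.6 ± 279.6 FPKM under serplulimab, 1361 ± 151 FPKM under HLX53 and 1188 ± 403 FPKM under vehicle in T2106. Tumours of pembrolizumab + tiragolumab had the highest mean and those of serplulimab + HLX53 10 mg/kg the lowest, and the values did not overlap. In T2215 Ldha averaged 1359.5 ± 576 FPKM under serplulimab + HLX53, 1318 ± 139.7 FPKM under serplulimab + tiragolumab, 1286 ± 212 FPKM under pembrolizumab + HLX53, 1547 ± 205 FPKM under pembrolizumab + tiragolumab, 1758 ± 93.8 FPKM under serplulimab, 1579 ± 153 FPKM under pembrolizumab, 1461 ± 326 FPKM under HLX53, 1232 ± 227 FPKM under tiragolumab and 1346 ± 223 FPKM under vehicle. There the mean of serplulimab was highest and that of tiragolumab lowest, and their tumours did not overlap.

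Hif1a averaged 81.2 ± 24.2 FPKM under serplulimab + HLX53 10 mg/kg, 74.7 ± 39.3 FPKM under serplulimab + HLX53 5 mg/kg, 41.0 ± 0.981 FPKM under pembrolizumab + tiragolumab, 52.6 ± 15.9 FPKM under serplulimab, 45.5 ± 7.00 FPKM under HLX53 and 33.8 ± 1.72 FPKM under vehicle in T2106. The highest group mean was that of serplulimab + HLX53 10 mg/kg and the lowest that of vehicle, and the tumours of these groups did not overlap. In T2215 Hif1a averaged 59.2 ± 15.0 FPKM under serplulimab + HLX53, 42.6 ± 5.08 FPKM under serplulimab + tiragolumab, 55.9 ± 18.4 FPKM under pembrolizumab + HLX53, 43.5 ± 1.98 FPKM under pembrolizumab + tiragolumab, 40.7 ± 8.71 FPKM under serplulimab, 44.4 ± 3.13 FPKM under pembrolizumab, 53.4 ± 20.1 FPKM under HLX53, 42.3 ± 5.60 FPKM under tiragolumab and 43.0 ± 1.40 FPKM under vehicle. The order ran there between serplulimab + HLX53 at the top and serplulimab at the bottom, whose tumours overlapped. Egln3 averaged 4.58 ± 0.996 FPKM under serplulimab + HLX53 10 mg/kg, 7.73 ± 7.97 FPKM under serplulimab + HLX53 5 mg/kg, 3.66 ± 0.725 FPKM under pembrolizumab + tiragolumab, 3.50 ± 1.32 FPKM under serplulimab, 3.05 ± 0.403 FPKM under HLX53 and 2.33 ± 1.60 FPKM under vehicle in T2106. Its level was highest on average under serplulimab + HLX53 5 mg/kg and lowest under vehicle, whose tumours overlapped. In T2215 Egln3 averaged 4.83 ± 1.89 FPKM under serplulimab + HLX53, 2.39 ± 0.652 FPKM under serplulimab + tiragolumab, 4.58 ± 3.69 FPKM under pembrolizumab + HLX53, 4.44 ± 0.556 FPKM under pembrolizumab + tiragolumab, 4.44 ± 2.05 FPKM under serplulimab, 3.39 ± 0.311 FPKM under pembrolizumab, 5.93 ± 3.29 FPKM under HLX53, 1.86 ± 0.7997 FPKM under tiragolumab and 2.38 ± 1.58 FPKM under vehicle. Among these 9 groups HLX53 had the highest mean and tiragolumab the lowest, and their tumours did not overlap.

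Car9 averaged 4.79 ± 0.596 FPKM under serplulimab + HLX53 10 mg/kg, 7.01 ± 3.76 FPKM under serplulimab + HLX53 5 mg/kg, 10.4 ± 2.67 FPKM under pembrolizumab + tiragolumab, 17.7 ± 3.21 FPKM under serplulimab, 7.57 ± 3.82 FPKM under HLX53 and 7.23 ± 6.83 FPKM under vehicle in T2106. Among the 6 groups the mean under serplulimab topped the order and that under serplulimab + HLX53 10 mg/kg closed it, and their tumours did not overlap. In T2215 Car9 averaged 21.4 ± 20.0 FPKM under serplulimab + HLX53, 10.2 ± 4.83 FPKM under serplulimab + tiragolumab, 10.6 ± 2.91 FPKM under pembrolizumab + HLX53, 15.9 ± 2.36 FPKM under pembrolizumab + tiragolumab, 15.7 ± 4.81 FPKM under serplulimab, 13.8 ± 2.50 FPKM under pembrolizumab, 12.7 ± 3.89 FPKM under HLX53, 4.20 ± 2.42 FPKM under tiragolumab and 15.3 ± 12.3 FPKM under vehicle. There the mean of serplulimab + HLX53 was highest and that of tiragolumab lowest, and their tumours overlapped. Vegfa averaged 52.8 ± 8.06 FPKM under serplulimab + HLX53 10 mg/kg, 94.1 ± 56.7 FPKM under serplulimab + HLX53 5 mg/kg, 106 ± 22.1 FPKM under pembrolizumab + tiragolumab, 107 ± 15.6 FPKM under serplulimab, 112 ± 26.0 FPKM under HLX53 and 92.3 ± 32.6 FPKM under vehicle in T2106. Tumours of HLX53 had the highest mean and those of serplulimab + HLX53 10 mg/kg the lowest, and the values did not overlap. In T2215 Vegfa averaged 79.7 ± 37.9 FPKM under serplulimab + HLX53, 57.8 ± 3.96 FPKM under serplulimab + tiragolumab, 73.4 ± 25.02 FPKM under pembrolizumab + HLX53, 73.4 ± 14.2 FPKM under pembrolizumab + tiragolumab, 72.8 ± 14.4 FPKM under serplulimab, 90.3 ± 16.2 FPKM under pembrolizumab, 100.4 ± 21.8 FPKM under HLX53, 67.4 ± 15.7 FPKM under tiragolumab and 71.4 ± 37.4 FPKM under vehicle. The order ran there between HLX53 at the top and serplulimab + tiragolumab at the bottom, whose tumours did not overlap.

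Adm averaged 8.79 ± 1.47 FPKM under serplulimab + HLX53 10 mg/kg, 7.52 ± 1.14 FPKM under serplulimab + HLX53 5 mg/kg, 5.90 ± 0.948 FPKM under pembrolizumab + tiragolumab, 7.04 ± 1.29 FPKM under serplulimab, 7.49 ± 2.16 FPKM under HLX53 and 4.93 ± 1.04 FPKM under vehicle in T2106. The highest group mean was that of serplulimab + HLX53 10 mg/kg and the lowest that of vehicle, and the tumours of these groups did not overlap. In T2215 Adm averaged 10.6 ± 3.23 FPKM under serplulimab + HLX53, 5.56 ± 0.664 FPKM under serplulimab + tiragolumab, 10.1 ± 6.80 FPKM under pembrolizumab + HLX53, 9.26 ± 2.74 FPKM under pembrolizumab + tiragolumab, 12.3 ± 7.99 FPKM under serplulimab, 8.05 ± 0.767 FPKM under pembrolizumab, 10.1 ± 8.33 FPKM under HLX53, 4.93 ± 1.52 FPKM under tiragolumab and 6.03 ± 1.88 FPKM under vehicle. Among these 9 groups serplulimab had the highest mean and tiragolumab the lowest, and their tumours did not overlap. Bnip3 averaged 105 ± 16.1 FPKM under serplulimab + HLX53 10 mg/kg, 178 ± 60.6 FPKM under serplulimab + HLX53 5 mg/kg, 254 ± 44.5 FPKM under pembrolizumab + tiragolumab, 235 ± 42.0 FPKM under serplulimab, 176 ± 5.69 FPKM under HLX53 and 131 ± 98.7 FPKM under vehicle in T2106. Its level was highest on average under pembrolizumab + tiragolumab and lowest under serplulimab + HLX53 10 mg/kg, whose tumours did not overlap. In T2215 Bnip3 averaged 179 ± 90.5 FPKM under serplulimab + HLX53, 114 ± 5.96 FPKM under serplulimab + tiragolumab, 165 ± 73.8 FPKM under pembrolizumab + HLX53, 169 ± 34.9 FPKM under pembrolizumab + tiragolumab, 193 ± 29.7 FPKM under serplulimab, 201 ± 41.6 FPKM under pembrolizumab, 192 ± 75.7 FPKM under HLX53, 98.6 ± 53.8 FPKM under tiragolumab and 159 ± 98.5 FPKM under vehicle. There the mean of pembrolizumab was highest and that of tiragolumab lowest, and their tumours did not overlap.

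If the 3 libraries that stand apart are left out, 3 of the T2106 groups rest on 2 tumours, and their means shift. Slc2a1 then averaged 73.1 FPKM under serplulimab + HLX53 5 mg/kg, 85.6 FPKM under HLX53 and 72.4 FPKM under vehicle. For Hk2 the means were 17.1 FPKM at 5 mg/kg, 17.2 FPKM under HLX53 and 15.1 FPKM under vehicle, so that serplulimab + HLX53 10 mg/kg (13.5 FPKM) had the lowest mean. Pgk1 then averaged 738 FPKM under serplulimab + HLX53 5 mg/kg, 1068 FPKM under HLX53 and 1008 FPKM under vehicle. For Ldha the means were 1060.0 FPKM at 5 mg/kg, 1445 FPKM under HLX53 and 1406 FPKM under vehicle. Hif1a then averaged 91.7 FPKM under serplulimab + HLX53 5 mg/kg, 44.3 FPKM under HLX53 and 34.1 FPKM under vehicle, so that the 5 mg/kg group had the highest mean. For Egln3 the means were 9.86 FPKM at 5 mg/kg, 3.07 FPKM under HLX53 and 3.20 FPKM under vehicle, so that HLX53 had the lowest mean. Car9 then averaged 4.90 FPKM under serplulimab + HLX53 5 mg/kg, 8.89 FPKM under HLX53 and 10.4 FPKM under vehicle. For Vegfa the means were 61.9 FPKM at 5 mg/kg, 97.6 FPKM under HLX53 and 107 FPKM under vehicle, so that vehicle had the highest mean. Adm then averaged 7.02 FPKM under serplulimab + HLX53 5 mg/kg, 6.38 FPKM under HLX53 and 5.49 FPKM under vehicle. For Bnip3 the means were 144 FPKM at 5 mg/kg, 179 FPKM under HLX53 and 181 FPKM under vehicle. The extremes of Slc2a1, Pgk1, Ldha, Car9, Adm and Bnip3 were the groups given above.

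Across tumours the members differed widely in how much they varied. Car9 varied most in both experiments, with an SD of 0.96 on the log2 scale over the T2106 tumours and 0.90 over those of T2215. Ankrd37, Bnip3 and Ndrg1 followed in T2106, at 0.89, 0.77 and 0.77, and Pfkfb3, Ndrg1 and Egln3 in T2215, at 0.76, 0.74 and 0.71. Hk1 varied least, with 0.15 and 0.19. Over the 15 T2106 tumours that do not stand apart, Car9 (0.75) and Ankrd37 (0.70) again varied most and Hk1 (0.15) least. Over all genes tested the median SD across tumours was 0.33 in T2106 and 0.28 in T2215. Within groups it was 0.27 in both experiments.

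Several genes varied together from tumour to tumour once each group's mean was subtracted. The pairs made 10 relations, 5 in each experiment, tested with two-sided permutation tests of 100000 resamples, whose smallest possible p is 1e-05. The centred values were permuted freely over all tumours of an experiment. Centring ties the tumours of a group to each other, so these p-values are too small, most so where a group holds 2 tumours. Values over the 15 T2106 tumours that do not stand apart were adjusted over their own 5 pairs. Pgk1 and Ldha had r = 0.965 and rho = 0.946 over the 27 T2215 tumours (permutation p = 1e-05 for both, adjusted p = 2.5e-05 and 3.33e-05), and r = 0.933 without the 2 tumours farthest from the median. Over the 15 T2106 tumours they had r = 0.969 and rho = 0.996 (permutation p = 1e-05 and adjusted p = 5e-05 for both), r = 0.963 without the 2 farthest, and over all 18 r = 0.944. Both enzymes thus went up and down together in both experiments. Bnip3 and Ankrd37 had r = 0.873 and rho = 0.882 in T2215 (permutation p = 1e-05 for both, adjusted p = 2.5e-05 and 3.33e-05), and r = 0.814 without the 2 farthest. Over the 15 T2106 tumours they had r = 0.834 and rho = 0.721 (permutation p = 0.00014 and 0.00363, adjusted p = 0.00035 and 0.00907), and r = 0.722 without the 2 farthest, and over all 18 r = 0.954. All tumours of an experiment share one normalisation.

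Car9 and Egln3, both HIF targets, varied together in T2215 and not detectably in T2106. They had r = 0.713 and rho = 0.743 in T2215 (permutation p = 3e-05 and 2e-05, adjusted p = 6e-05 and 5e-05), and r = 0.756 without the 2 farthest tumours. Over the 15 T2106 tumours they had r = −0.289 and rho = −0.218 (permutation p = 0.304 and 0.434, adjusted p = 0.304 and 0.434), and over all 18 r = 0.273 and rho = −0.0052 (permutation p = 0.262 and 0.987, adjusted p = 0.262 and 0.987), with r = −0.46 without the 2 farthest. Slc2a1 and Egln3 had r = 0.678 and rho = 0.611 in T2215 (permutation p = 7e-05 and 0.001, adjusted p = 0.000117 and 0.00167), and r = 0.611 without the 2 farthest. In T2106 that pair had r = −0.305 and rho = −0.243 over the 15 tumours (permutation p = 0.275 and 0.382, adjusted p = 0.304 and 0.434). Over all 18 it had r = 0.287 and rho = 0.0423 (permutation p = 0.236 and 0.871, adjusted p = 0.262 and 0.967), with r = −0.503 without the 2 farthest, so the sign of r depended on the libraries counted. The difference between the experiments was not tested. Vegfa and Adm had r = 0.254 and rho = 0.208 in T2215 (permutation p = 0.203 and 0.298, adjusted p = 0.253 and 0.372), and r = 0.349 without the 2 farthest. Over all 18 T2106 tumours they had r = 0.610 and rho = 0.713 (permutation p = 0.00699 and 0.00124, adjusted p = 0.00999 and 0.00177), and r = 0.778 without the 2 farthest. Over the 15 that do not stand apart they had r = 0.385 and rho = 0.354 (permutation p = 0.155 and 0.196, adjusted p = 0.258 and 0.326), and r = 0.204 without the 2 farthest. That relation passed the threshold only with the 3 libraries counted.

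Some further members round out the groups. Over the T2106 groups, Gpi1, the phosphoglucose isomerase, had 289 ± 34.2 FPKM under serplulimab + HLX53 at 10 mg/kg and 505 ± 104 FPKM in vehicle (−0.79 ± 0.33, adjusted p = 0.0606). Slc16a3 had 73.8 ± 18.4 FPKM, against 42.1 ± 25.04 FPKM (1.02 ± 0.42, adjusted p = 0.061), and P4ha2 30.9 ± 10.95 FPKM, against 17.2 ± 13.9 FPKM (1.12 ± 0.47, adjusted p = 0.0629). The fold change was negative for the first and positive for the others, and none passed the threshold. Gpi1 was called lower without the 3 libraries that stand apart (−0.66 ± 0.18, adjusted p = 0.0204), while Slc16a3 (0.37 ± 0.20, adjusted p = 0.133) and P4ha2 (0.45 ± 0.35, adjusted p = 0.291) were not called. P4ha1, another collagen prolyl hydroxylase, had 75.4 ± 14.1 FPKM, against 64.0 ± 23.7 FPKM (0.29 ± 0.21), and Higd1a, a mitochondrial protein induced by hypoxia, 27.04 ± 2.83 FPKM, against 31.0 ± 18.1 FPKM (0.00 ± 0.35). Ddit4 had 25.8 ± 6.40 FPKM, against 20.2 ± 9.42 FPKM (0.44 ± 0.34), and Ndrg1, a stress-induced gene, 148 ± 22.7 FPKM, against 217 ± 158 FPKM (−0.22 ± 0.50). The differences of these 4 genes were not called with all libraries. Without the 3 that stand apart Higd1a (−0.53 ± 0.20, adjusted p = 0.0464) and Ndrg1 (−0.94 ± 0.32, adjusted p = 0.0392) were called lower, and P4ha1 (−0.03) and Ddit4 (−0.02) were not called.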

How the data were processed

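Total RNA of 45 whole tumours was sequenced as 150-nucleotide paired reads, per the labels' protocols. Per the submitters' processing notes, the tools used included STAR, Bowtie, Trimmomatic and FastQC, and mm10, hg19 and GRCh37 appear as builds, without version or role. The tool behind the FPKM values was not given in the sources used here. Values were deposited as log2 FPKM, normalised by the authors separately for each experiment, so the experiments were fitted apart. FPKM is relative to the library total, so a large change in one cell type shifts the share left for the others. Every column was matched to its sample by label.

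Values were raised to FPKM and tested as log2(FPKM + 0.5). Genes with 0.5 FPKM or more in at least 3 libraries were kept. All groups of an experiment entered one fit in limma 3.58.1 (R 4.3.3) with a moderated test, an intensity trend and Benjamini-Hochberg adjustment at 0.05, in 21 comparisons (7 in T2106 and 14 in T2215). The fit was tested on simulated data. Correlations used group-centred values and permutations in scipy 1.17.1 (Python 3.11.15). Gene positions are those of GRCm38, and promoters those of RefSeq.

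Members, gene lists and the choice of libraries that stand apart were made with earlier results of these data known. Of the members, those called were named with their values, up to 8 per comparison by size of change, with a panel of 10 genes and the 4 of largest SD. From the 4 pathway lists up to 4 genes per list and comparison were named by smallest p. Alternatives were other pseudocounts, filters, centring, library weights, only the groups compared, an adipocyte covariate, a replicate block, and leaving out each tumour, those with muscle markers or those that stand apart.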

Additional observations from a re-analysis of the deposited data

How the results depend on the processing

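Of 470 counts of called members and correlations recomputed under the alternatives, 430 kept their side of the threshold or stayed within 1.5 times. Many were counts of 0 that stayed at 0, in comparisons without a called member. The total therefore does not measure how stable the calls were. Leaving out single tumours kept the count for serplulimab + HLX53 10 mg/kg within that limit in 3 of 6 fits against vehicle. Against pembrolizumab + tiragolumab it did so in 1 of 6. Of 430 medians 3 moved by more than the median within-group SD of the members, a wide limit. For serplulimab + HLX53 10 mg/kg against vehicle, leaving out single tumours gave medians from −0.49 to 0.33, which did not count as moved. Of 410 values of called genes 268 held, 126 lost their call and 16 changed sign. All 16 changed sign with the adipocyte score as a covariate. Against vehicle in the serplulimab + HLX53 10 mg/kg tumours these were Eno1 (0.23) and Pfkfb4 (−0.19). Against pembrolizumab + tiragolumab they were Pfkl 0.083, Tpi1 0.28, Pgk1 0.25, Pgam1 0.046, Eno1 0.49, Pkm 0.24, Ldha 0.31, Pfkfb4 −0.52, Pdk1 0.62, Hif1a −0.37, Egln1 0.47, Vegfa 0.67, Ero1l 0.60 and Ankrd37 0.34. The covariate left 0 members called in either comparison by limma. The score nearly followed the groups in both, so score and treatment cannot be told apart. The cause was not tested.

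The number of members called for serplulimab + HLX53 10 mg/kg against vehicle, 7 in the report, was 3 with no filter on low values and 24 with library weights. It was 23 without the 3 libraries that stand apart, beside 44.2% of all genes, and 13 without tumours with muscle markers, beside 58.3%. Against pembrolizumab + tiragolumab the count of 17 became 3 with no filter, 28 with only the groups compared and 29 with library weights. Without the 3 libraries it was 28, beside 54.1% of all genes. For 5 mg/kg against vehicle it was 1 with a filter of 1 FPKM, 1 with libraries centred on their medians and 15 with library weights. Without the 3 libraries it was 4, beside 17.7% of all genes. Between the doses it was 21 with library weights and 12 without muscle tumours, the latter beside 38.9% of all genes. Library weights also gave 22 for serplulimab and 3 for pembrolizumab + tiragolumab against vehicle in T2106. In T2215 they gave 27 for serplulimab + HLX53 and 1 for serplulimab + tiragolumab against vehicle, 18 for serplulimab + HLX53 against pembrolizumab + tiragolumab, 8 for any PD-1 antibody and 15 for HLX53 against tiragolumab arms. The weights were not stable, since the iteration stopped before it converged. The cause of the other changes was not tested. A count in this section without a share of all genes beside it does not show whether the members changed apart from all genes.

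Leaving out single tumours, the count ranged from 0 to 7 for 10 mg/kg against vehicle, from 1 to 14 against pembrolizumab + tiragolumab, from 0 to 9 for 5 mg/kg against vehicle, from 0 to 12 between the doses and from 0 to 1 for serplulimab against vehicle in T2215. Against vehicle, leaving out serplulimab + HLX53 10 mg/kg tumour 1 or 3 gave 0 and vehicle tumour 3 gave 4. Against pembrolizumab + tiragolumab, tumour 1 of serplulimab + HLX53 10 mg/kg gave 1 and tumour 3 gave 2, and pembrolizumab + tiragolumab tumours 1, 2 and 3 gave 9, 3 and 2. The 9 of the 5 mg/kg comparison came without its tumour 3, and the 12 between the doses without 5 mg/kg tumour 2. The 1 came without serplulimab tumour 2. Shares of all genes called are not given here for these fits, so a change particular to the members cannot be read from them.

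Samples with the same number did not deviate together (mean r −0.020 in T2106 and −0.023 in T2215), and 7 of 18 and 10 of 27 libraries correlated best with their own number. With a replicate block the counts were 6 against vehicle and 16 against pembrolizumab + tiragolumab, with Eno1 and Hk1 as the calls lost. Correlations in T2106 moved as well: Vegfa with Adm had r = 0.0282 when not centred on group means and 0.385 without the 3 libraries, Car9 with Egln3 had rho = −0.0052 and r = −0.289 without them, and Slc2a1 with Egln3 r = −0.305. Groups of 3 tumours, unknown depth and mixed tissue limit every result.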
